A study of Mus musculus with 6 samples.

Results

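Intravascular macrophages (IVM) were set against monocytes in mice of 2 genotypes, using 4 of the 6 RNA-seq libraries of the series. The libraries were VE-IVM, from mice carrying the activating BRAF V600E mutation, WT-IVM, from wild-type mice, VE-monocyte and WT-monocyte, with 1 library each. No treatment is named for any of them, and all came from sorted cells whose RNA was extracted on columns and copied into full-length cDNA with a kit for very low input. The mouse strain, the age, the driver of the mutant allele, the sorting gate and the number of mice per library are not given in the labels used here. With 1 library per genotype, the 2 genotypes served as replicates of a cell type, genotype was a block, and a gene was called only if it passed the test and moved the same way in both. The 2 microglia libraries of the series, VE and WT, were part of the same fit, where they also bear on the filter, the scaling and the spread, and their levels are given beside those of IVM. Of 17023 genes tested, 9114 (53.5%) went the same way in both genotypes, 4054 (23.8%) higher and 5060 (29.7%) lower in IVM, and 87 of these passed the test (0.511% of the genes tested).

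Monocytes leave the bone marrow for the blood in a classical form, marked in mice by Ly6C and the receptor CCR2, and some turn into patrolling cells that crawl along the vessel wall and depend on the nuclear receptor NR4A1. Macrophages that stay inside vessels face the blood on one side and the endothelium on the other; the best known of them are the Kupffer cells of the liver. Microglia, the macrophages of the brain tissue itself, carry a gene program of their own that the transcription factor SALL1 and TGF-beta signalling maintain. BRAF V600E keeps the BRAF kinase, and through it MEK and ERK, switched on.

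The labels were read against marker lists, which were chosen with earlier results of these data known. Total counts ran from 25757886 to 65421671 per library, and genes with a count from 15121 in WT-IVM to 23214 in VE-IVM. Markers of classical monocytes summed to 1668 and 1080 CPM in VE-IVM and WT-IVM, against 18884 and 13067 CPM in VE-monocyte and WT-monocyte, where 17 of 17 reached 10 CPM in both. CPM stands for read counts made comparable between libraries by TMM factors. Markers of patrolling monocytes summed to 5290 and 4114 CPM in the IVM libraries, against 2388 and 2728 CPM in monocytes. No marker list was drawn up for IVM themselves, and that of Kupffer cells summed to 562 and 133 CPM in IVM, against 231 and 42.0 CPM in monocytes. Genes of other cells were read in single libraries. Those of T and NK cells came to 5.05 CPM in VE-IVM and 7078 CPM in WT-IVM, where 18 of 18 reached 10 CPM. Neutrophil markers summed to 57616 CPM and erythroid markers to 10561 CPM in VE-monocyte, against 2028 and 223 CPM in WT-monocyte. A gene that follows 1 such library is called only if the other genotype's pair goes the same way.

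The question of this comparison was which genes separate IVM from blood monocytes whatever the genotype. In all, 46 genes were higher (0.270% of the 17023 tested) and 41 were lower (0.241%) in IVM by edgeR's quasi-likelihood test with a Benjamini-Hochberg adjusted p under 0.05. The higher genes included 6 microglia markers, the inducible HSP70 chaperones, a lectin and a CD300 receptor, and 33 of the 46 were higher still in microglia. The lower genes were markers of classical monocytes, proteins of neutrophil granules, a globin gene, and a large set of other, mostly short transcripts, many for mitochondrial proteins. The calls were made on these same libraries, so a lack of overlap between the cell types largely follows from them and is description only. In all 46 of the higher genes both IVM libraries lay above both monocyte libraries, which held for 19.6% of all genes. In 40 of the 41 lower genes both lay below, against 23.6% of all genes. The exception was the predicted gene BC100530, with 5.21 CPM in VE-IVM and 0.0280 in WT-IVM, against 459.9 CPM in VE-monocyte and 0.347 in WT-monocyte.

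Across all genes the log2 ratios of IVM to monocytes in the 2 genotypes had a Pearson correlation of 0.168 and a Spearman correlation of 0.156, across genes that are not independent replicates. The test had 2 residual degrees of freedom, so the calls rest on genes whose fitted fold was very large. The smallest absolute log2 fold change was 4.29 among the higher and 4.01 among the lower genes. In single genotypes the fold could be much smaller. BC100530 was 88.4-fold lower in VE mice and 12.4-fold lower in WT mice, there on 1 count in WT-IVM and 8 in WT-monocyte. The numbers of genes higher in IVM and genes lower in IVM moved with single libraries: 1771 and 3313 without VE-IVM, 937 and 1189 without WT-IVM, 39 and 41 without VE-monocyte, and 18 and 40 without WT-monocyte. No gene was called with library size alone as scaling or with limma on TPM, where 2056 and 2417 genes had an unadjusted p under 0.05.

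**Figure D1:**
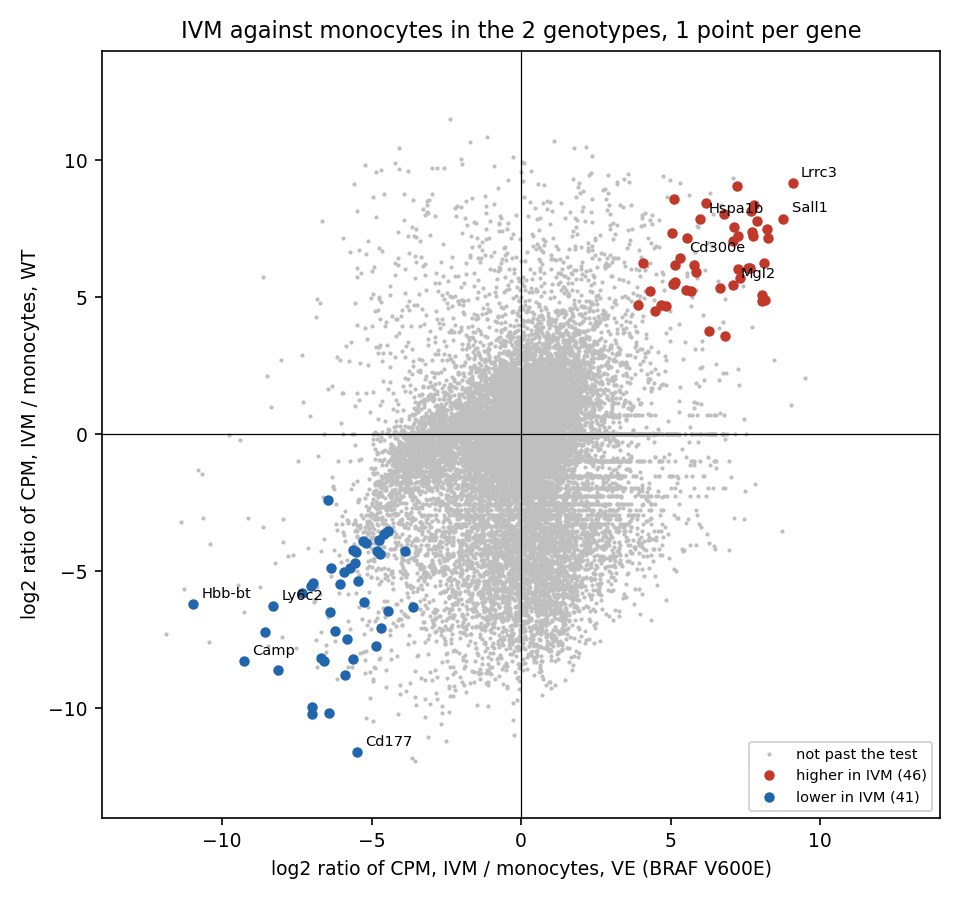
Each point is 1 of the 17023 genes tested, with the log2 ratio of IVM to monocytes in VE mice on the horizontal axis and in WT mice on the vertical axis; called genes are coloured. The 46 called higher and 41 called lower genes lie in the outer corners of the quadrants where both genotypes go the same way, while the mass of the genes spreads over all 4 quadrants.

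Of the 14 microglia markers tested, 6 were called higher in IVM, against 0.270% of all genes, and none was called lower. The 6 were Sall1, Sparc, Slc2a5, Fcrls, Olfml3 and Siglech. By size alone 11 of the 14 were at least 4-fold higher in each genotype with 10 CPM in both IVM libraries, against 1.29% of all genes. The list's median fitted log2 fold change was 5.55, against -0.12 over all genes tested.

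Sall1, the transcription factor that sets microglial identity (ENSMUSG00000031665.7, chromosome 8, 89027235 to 89044162, minus strand, build mm10), was read at 89.4 CPM in VE-IVM and 31.0 in WT-IVM, against 0.160 and 0.0868 CPM in VE-monocyte and WT-monocyte. Both IVM libraries were far above both monocyte libraries, where WT-monocyte held 2 counts. The log2 fold change was 8.82 (SE 1.10, adjusted p = 0.00411, edgeR).

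Sparc, a secreted collagen-binding glycoprotein (chromosome 11, 55394500 to 55423183, minus strand), had 661 and 604 CPM in VE-IVM and WT-IVM, against 2.72 and 2.69 CPM in VE-monocyte and WT-monocyte. Within each cell type the 2 genotypes were almost level, and the groups lay apart by 243-fold in VE mice (95% counting interval 200.2 to 298) and 225-fold in WT mice (175 to 293). Its log2 fold change was 7.86 (SE 1.46, adjusted p = 0.0275, edgeR).

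Fcrls, an Fc receptor-like scavenger receptor much used as a microglia marker (chromosome 3, 87250758 to 87263738, minus strand), was at 458 and 236 CPM in VE-IVM and WT-IVM, against 3.28 and 1.21 CPM in VE-monocyte and WT-monocyte. The siglec Siglech, which plasmacytoid dendritic cells also express, stood at 373 and 117 CPM in IVM, against 3.68 and 2.86 CPM in monocytes. In both genes VE-IVM was the highest of the 4 libraries and no monocyte library came near either IVM library. The fructose transporter gene Slc2a5 was 304-fold higher in VE mice (199 to 491) and 85.0-fold in WT mice (44.6 to 186), and the secreted olfactomedin-like gene Olfml3 199.8-fold (153 to 265) and 67.9-fold (50.6 to 93.2). With transcript length and GC content corrected for, Siglech and Olfml3 did not quite pass (adjusted p = 0.0506 and 0.0519, edgeR) at log2 fold changes of 6.08 and 6.81.

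The other 8 markers did not pass. P2ry12, the purinergic receptor that steers microglial processes, had 1122 and 290.2 CPM in IVM, against 21.7 and 11.4 CPM in monocytes (log2 fold change 5.22, SE 1.42, adjusted p = 0.157, edgeR). The membrane protein gene Tmem119 had 955 and 286 CPM, against 20.2 and 4.73 CPM (log2 fold change 5.72, SE 1.29, adjusted p = 0.0743, edgeR). In both genes each IVM library lay above each monocyte library. Csf1r, the growth factor receptor of all mononuclear phagocytes, was at 5004 CPM in VE-IVM and 1039 in WT-IVM, against 856 and 980.1 CPM in VE-monocyte and WT-monocyte, so that only the mutant pair lay apart.

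The levels of most of these markers in IVM were a part of those in the microglia libraries. In VE mice Csf1r (157%) and Tgfbr1 (115%) were above the microglia level. Over the 14 markers the IVM level was 8.52% (Olfml3) to 157% (Csf1r) of that in microglia in VE mice, with a median of 12.4%, and 2.63% (Tgfbr1) to 18.4% (Sparc) in WT mice, with a median of 7.91%. Their sum was 14084 CPM in VE-IVM and 3693 in WT-IVM, against 1292 and 1350 CPM in monocytes, and 71450 and 43344 CPM in VE and WT microglia. Of the 46 higher genes, 33 were lower in both IVM libraries than in both microglia libraries, as were 23.0% of all genes. In bulk libraries more cells of a type and more RNA per cell cannot be told apart, and the part that microglia in the sorted cells may have in these values was not tested.

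Most other genes at the top of the list shared this pattern. Lrrc3, a leucine-rich repeat membrane protein gene (chromosome 10, 77897575 to 77902536, minus strand), was at 126 and 75.7 CPM in VE-IVM and WT-IVM, against 0.186 and 0.0868 CPM in VE-monocyte and WT-monocyte. Its level in VE and WT microglia was 154 and 324 CPM, above both IVM libraries. The log2 fold change of 9.45 (SE 1.10, adjusted p = 0.00365, edgeR) was the largest among the called genes with 10 CPM in both IVM libraries. Tspan7, a tetraspanin (log2 fold change 8.39, SE 0.99), Slc1a3, the glutamate transporter GLAST (8.30), and Nav3, a neuron navigator gene (8.09, SE 1.06), likewise stood in both IVM libraries far above monocytes and below microglia.

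Adamts1, a metalloproteinase that cleaves versican and other proteoglycans (chromosome 16, 85793827 to 85803113, minus strand), had 10.6 CPM in VE-IVM and 47.8 in WT-IVM, against 0.0266 and 0.0434 CPM in VE-monocyte and WT-monocyte, or 1 count in each monocyte library. Serpine2, the protease inhibitor protease nexin 1, had 268 and 98.0 CPM, against 1.92 and 0.694 CPM. P3h2, a prolyl hydroxylase of collagens, had no count in either monocyte library and 4.96 and 12.1 CPM in VE-IVM and WT-IVM. Against a floor of 3 counts per library it was at least 62.0-fold higher in VE and at least 92.7-fold higher in WT mice; its adjusted p with length and GC content corrected for was 0.0749 by edgeR.

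Slco2b1, an organic anion transporter gene (chromosome 7, 99657804 to 99711340, minus strand), differed widely between the IVM libraries, with 659 CPM in VE-IVM and 44.2 in WT-IVM, against 3.20 and 0.607 CPM in VE-monocyte and WT-monocyte. The groups did not overlap even so. Fscn1, which bundles actin, showed the opposite and was level within each cell type, at 31.2 and 33.2 CPM in IVM, against 0.160 and 0.173 CPM in monocytes.

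Only 4 of the 46 higher genes were above both microglia libraries in both IVM libraries, against 13.2% of all genes: Cd300e, Mgl2, Hspa1a and Hspa1b. Set against microglia of the same genotype alone, IVM were also higher for Lilra5, Cd72 and Tlr3. The IVM levels of these were 309%, 200% and 121% of those in microglia in VE mice, and 249%, 184% and 139% in WT mice. Cd300e and Mgl2 are singled out after their values were seen. Cd300e, an activating receptor of monocytes and other myeloid cells (ENSMUSG00000048498.7, chromosome 11, 115051917 to 115062177, minus strand), had 659.5 CPM in VE-IVM and 143 in WT-IVM, against 16.4 and 1.60 CPM in VE-monocyte and WT-monocyte. The microglia libraries held only 1.48 and 0.238 CPM. It was 40.3-fold higher in VE mice (37.2 to 43.7) and 88.8-fold higher in WT mice (64.4 to 126), with a log2 fold change of 5.88 (SE 0.88, adjusted p = 0.00816, edgeR).

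Mgl2, a galactose-type lectin of macrophages and dendritic cells (chromosome 11, 70130329 to 70137550, plus strand), had 233 and 86.0 CPM in VE-IVM and WT-IVM, against 1.68 and 1.91 CPM in VE-monocyte and WT-monocyte. It was nearly as low in microglia as in monocytes, at 7.27 and 1.53 CPM. Its log2 fold change was 6.17 (SE 0.98, adjusted p = 0.0101, edgeR). Cd300e and Mgl2 were also among the 22 of the 46 higher genes that still passed once transcript length and GC content were corrected for. They passed only narrowly (adjusted p = 0.0496 for each, edgeR), while Hspa1b and Hspa1a did not pass (0.0522 and 0.0849, edgeR).

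Hspa1b and Hspa1a, the stress-inducible HSP70 chaperones that bind unfolded proteins, were the only 2 of 12 heat shock chaperones called higher, against 0.270% of all genes. None was called lower. By direction alone 6 of the 12 were higher in both genotypes, 1 was lower and 5 went opposite ways. Hspa1b (ENSMUSG00000090877.3, chromosome 17, 34956436 to 34959238, minus strand) had 510.4 CPM in VE-IVM and 1224 in WT-IVM, against 7.97 and 5.21 CPM in VE-monocyte and WT-monocyte. Hspa1a had 309 and 572 CPM, against 9.03 and 12.8 CPM. In both genes WT-IVM was the highest library and the groups lay far apart; VE-IVM was the higher of the 2 IVM libraries in most genes of the higher set. The log2 fold changes were 6.78 (SE 1.08, adjusted p = 0.0102) for Hspa1b and 5.31 (SE 0.88, adjusted p = 0.0136) for Hspa1a by edgeR. Corrected for length and GC content they were 6.55 and 5.09, with adjusted p of 0.0522 and 0.0849 (edgeR).

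The 2 genes are near-identical neighbours, so their counts may be split between them by the authors' counting and should be read as a pair. The 250 bases before their starts, from RefSeq on GRCm38.p6, are shown because they show both the likeness and the sequence to which heat shock factors bind. They match at 247 positions and differ at 3. Capitals mark GAANNTTC, an inverted pair of the GAA half-sites of the heat shock element, which reads the same on both strands and starts 104 bases before each gene.

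Hspa1b, chr17:34959239-34959488, minus strand: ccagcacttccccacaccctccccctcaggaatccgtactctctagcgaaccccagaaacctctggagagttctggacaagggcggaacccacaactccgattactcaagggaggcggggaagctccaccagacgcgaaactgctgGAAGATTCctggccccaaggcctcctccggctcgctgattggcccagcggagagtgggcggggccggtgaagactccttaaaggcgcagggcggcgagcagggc
Hspa1a, chr17:34972157-34972406, minus strand: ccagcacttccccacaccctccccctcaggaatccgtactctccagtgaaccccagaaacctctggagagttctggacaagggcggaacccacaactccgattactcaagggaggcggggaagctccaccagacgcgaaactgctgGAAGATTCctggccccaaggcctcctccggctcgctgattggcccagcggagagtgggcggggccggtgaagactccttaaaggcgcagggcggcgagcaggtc

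The letters GAANNTTC stood in 6 of 43 promoters of the higher genes (13.95%), in 3 of 31 promoters of the lower genes (9.68%) and in 704 of 13755 promoters of genes tested (5.12%), always over 250 bases. The 6 include the near-identical promoters of Hspa1b and Hspa1a, and the motif was chosen with the calls of these genes known. The shares are therefore descriptions only. Of the called genes, 38 higher and 28 lower ones had a promoter in the table. The other chaperones went several ways. Dnajb1, the HSP40 partner of HSP70, had 128 and 201 CPM in IVM, against 47.0 and 49.3 CPM in monocytes, and the mitochondrial Hspe1 had 34.9 and 105 CPM, against 508 and 214 CPM. Neither passed the test.

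Tlr3, the endosomal sensor of double-stranded RNA, had 29.8 CPM in VE-IVM and 107 in WT-IVM, against 0.799 and 1.43 CPM in VE-monocyte and WT-monocyte. It was the only 1 of 17 Toll-like receptors and adaptors called higher, against 0.270% of all genes, and none was called lower. By direction alone 2 of the 17 were higher in both genotypes, 6 were lower and 9 went opposite ways. For Tlr3 the test gave the following values. Its log2 fold change was 5.70 (SE 0.94, adjusted p = 0.0132, edgeR), and 6.02 (adjusted p = 0.0640, edgeR) with length and GC content corrected for. The inhibitory receptor gene Cd72 was at 137 and 15.8 CPM, against 6.15 and 0.651 CPM, and Blnk, an adaptor of immune receptor signalling, at 83.6 and 21.3 CPM, against 2.88 and 0.781 CPM. In both, VE-monocyte lay above WT-monocyte as VE-IVM lay above WT-IVM.

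**Figure D2:**
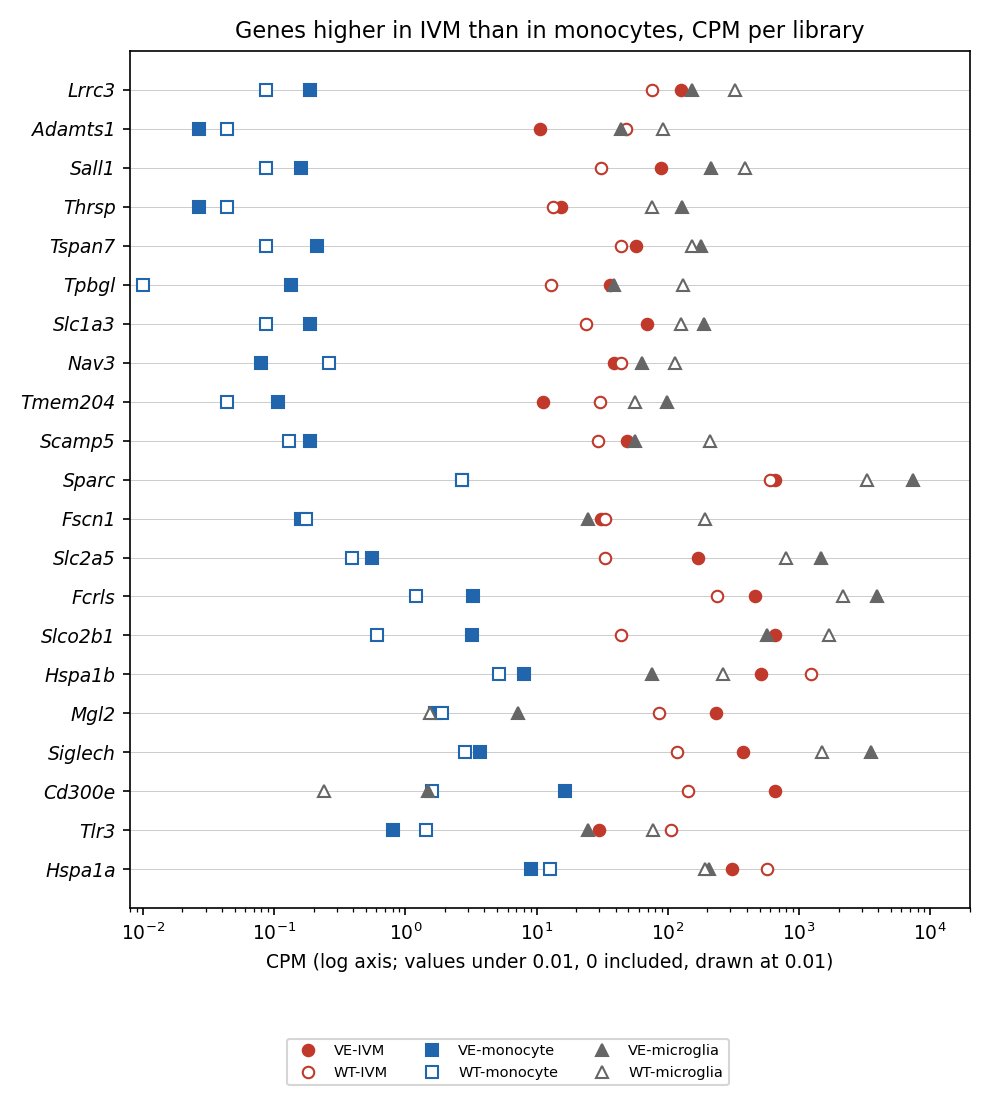
CPM on a log axis in each of the 6 libraries for the 15 called genes with the largest positive log2 fold change and for 6 further called genes (rows); filled symbols are VE, open symbols WT, circles IVM, squares monocytes and triangles microglia. Circles lie right of squares in every row, and both triangles lie left of both circles only for Hspa1b, Mgl2, Cd300e and Hspa1a.

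Markers of classical monocytes made up the first part of the lower set. Of 17 tested, 5 were called lower (Ly6c2, Vcan, Gm9733, Mgst1 and Cd177), against 0.241% of all genes, and none was called higher. By size alone 14 were at least 4-fold lower in each genotype, against 2.33% of all genes. The list's median log2 fold change was -5.19.

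Ly6c2, which encodes the Ly6C surface protein that defines classical monocytes (ENSMUSG00000022584.14, chromosome 15, 75108158 to 75111970, minus strand), had 5.95 CPM in VE-IVM and 10.7 in WT-IVM, against 1883 and 827 CPM in VE-monocyte and WT-monocyte. Every monocyte value was far above every IVM value, by 317-fold in VE mice (291 to 345) and 77.4-fold in WT mice (70.0 to 85.9). The log2 fold change was -7.24 (SE 1.12, adjusted p = 0.00873, edgeR). Ly6c2 was 1 of only 3 lower genes that still passed with length and GC content corrected for. Its near-identical neighbour Ly6c1 had 0.439 and 0.365 CPM in IVM, against 32.9 and 22.5 CPM in monocytes, and did not pass; reads may be split between the 2.

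Vcan, the proteoglycan versican, had 2.34 CPM in VE-IVM and 0 counts in WT-IVM, against 139.9 and 19.9 CPM in VE-monocyte and WT-monocyte. It was 59.8-fold lower in VE mice (52.1 to 69.1) and at least 237-fold lower in WT mice. Cd177, a surface protein of neutrophils and some monocytes, had 5.31 and 0.0841 CPM in IVM, against 242 and 399 CPM in monocytes. Mgst1, a microsomal glutathione transferase, was 14.7-fold lower in VE mice (14.3 to 15.2) and 19.2-fold lower in WT mice (17.7 to 20.8), the narrowest fold of the 5 genes. Ccr2, the receptor that lets monocytes leave the marrow, had 414 and 358 CPM in IVM, against 2104 and 1490 CPM in monocytes. All 4 Ccr2 values were well read, and its log2 fold change of -2.20 (SE 0.91, adjusted p = 0.505, edgeR) did not pass.

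Neutrophil markers formed the second part, with 3 of 15 called lower (Camp, Ngp and Lcn2), against 0.241% of all genes, none called higher, and a median log2 fold change of -5.69. In both genotypes 12 of the 15 were lower, while Csf3r, Mmp9 and Stfa2l1 went opposite ways. Camp, the precursor of the antimicrobial peptide cathelicidin (chromosome 9, 109847379 to 109849617, minus strand), had 2.91 and 0.196 CPM in VE-IVM and WT-IVM, against 1829.9 and 74.5 CPM in VE-monocyte and WT-monocyte. Ngp, the neutrophilic granule protein, had 34.2 and 0.252 CPM, against 1699.7 and 87.3 CPM. In both genes each mutant library stood above the wild-type library of the same cell type, and VE-IVM stayed below WT-monocyte. Lcn2, the iron-siderophore binding lipocalin 2, had 10.1 and 0.0561 CPM, against 577 and 17.8 CPM.

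The whole marker list, these 3 genes included, summed to 672 CPM in VE-IVM and 135 in WT-IVM, against 57616 and 2028 CPM in VE-monocyte and WT-monocyte, where S100a9, a calprotectin subunit, alone made up 23588 and 906 CPM. Mpo and Elane, enzymes of the earliest granules, had 0 counts in both IVM libraries, against 19.4 and 32.4 CPM in VE-monocyte and 2.13 and 2.04 in WT-monocyte. The part of neutrophils or their precursors among the sorted monocytes in these 3 calls was not tested. Wfdc21, a small secreted protein of the whey acidic protein family, fell with them, at 2.46 and 0.168 CPM in IVM, against 938 and 31.6 CPM in monocytes, and Clec4d, a C-type lectin that recognises fungal and mycobacterial glycolipids, had 18.6 and 0.112 CPM, against 536 and 33.0 CPM.

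The 250 bases before the starts of Ngp and Ly6c2 are shown because they hold motifs of the 2 factor families that drive granulocyte and monocyte genes. Capitals mark TTGCNNAA, a C/EBP motif searched on both strands, in Ngp, where it starts 138 and 11 bases before the RefSeq start, and GAGGAAGT, a PU.1 motif searched on both strands, in Ly6c2, where it starts 108 bases before it. The sequences are from RefSeq on GRCm38.p6, for Ly6c2 at 1 of its 2 RefSeq starts. GENCODE starts Ngp earlier, at 110419747, so the second Ngp match lies inside the gene as GENCODE draws it.

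Ngp, chr9:110419558-110419807, plus strand: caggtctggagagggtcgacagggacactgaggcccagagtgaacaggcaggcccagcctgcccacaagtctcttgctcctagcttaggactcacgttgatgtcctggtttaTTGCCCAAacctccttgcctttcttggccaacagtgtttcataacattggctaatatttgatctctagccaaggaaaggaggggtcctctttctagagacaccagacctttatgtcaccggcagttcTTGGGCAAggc
Ly6c2, chr15:75111972-75112221, minus strand: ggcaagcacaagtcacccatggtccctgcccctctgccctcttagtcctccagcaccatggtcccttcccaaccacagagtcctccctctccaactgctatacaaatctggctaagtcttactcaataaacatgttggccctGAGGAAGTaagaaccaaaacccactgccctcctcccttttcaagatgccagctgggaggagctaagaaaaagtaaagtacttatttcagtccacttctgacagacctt

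The C/EBP letters stood in 6 of 43 promoters of higher genes (13.95%), in 3 of 31 of lower genes (9.68%) and in 1101 of 13755 of genes tested. For the PU.1 letters the shares were 4.65%, 9.68% and 2.79%. The 9.68% rests on 3 promoters of 2 genes, since Ly6c2 is counted at both its RefSeq starts. The AP-1 letters TGANTCA, also searched, stood in 2.33%, 0% and 4.65%. With so few promoters these are descriptions only.

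Hbb-bt, an adult beta globin gene, had 0.371 and 0.252 CPM in VE-IVM and WT-IVM, against 831 and 21.8 CPM in VE-monocyte and WT-monocyte, and had the largest negative log2 fold change of the named genes (-9.28, SE 1.44, adjusted p = 0.00873, edgeR). It was the only 1 of 7 erythroid markers called lower by edgeR, against 0.241% of all genes, and none was called higher. In both genotypes 5 of the 7 were lower, and DESeq2 and limma-voom each called 4 of them lower. The list summed to 7.42 and 30.7 CPM in IVM, against 10561 and 223 CPM in monocytes, and its near-identical neighbour Hbb-bs, at 1.42 and 9.65 CPM against 3855 and 89.9 CPM, did not pass. The part of erythroid RNA in the call was not tested.

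**Figure D3:**
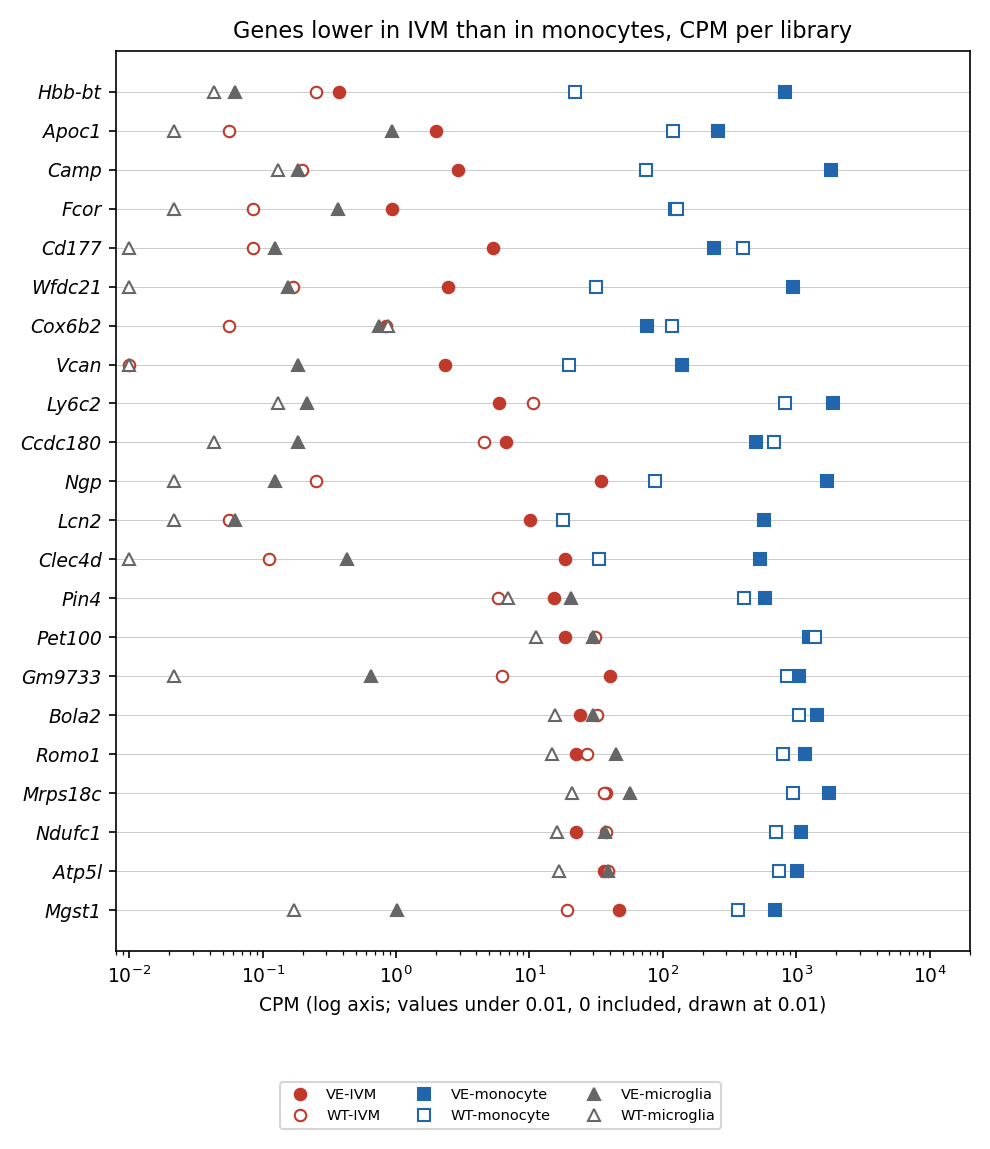
CPM on a log axis in each of the 6 libraries for the 15 called genes with the largest negative log2 fold change and for 7 further called genes (rows), with the same symbols: filled VE, open WT, circles IVM, squares monocytes, triangles microglia. Squares lie right of circles in every row; for the granule genes Camp, Ngp, Lcn2 and Wfdc21 the VE square is far right of the WT square, whereas for Pet100 and the rows from Bola2 to Atp5l both squares lie close together and the circles and triangles lie together far to their left.

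The third part of the lower set was made of short transcripts. The 41 lower genes had a median transcript length of 618 bases, against 2133 bases for the 46 higher genes and 1788 bases for all genes. Of the lower genes, 33 were under 1000 bases long, as were 7 of the higher genes and 28.3% of all genes. Ndufc1, a subunit of respiratory complex I, and Atp5k and Atp5l, subunits of ATP synthase, stood among these 33 with Romo1, Mrps18c, Slirp and Higd1a, all of the mitochondrion. The nuclear genes Polr2k (an RNA polymerase subunit) and Cops9 (of the COP9 signalosome) did so too. Of the 11 lower predicted genes, pseudogenes and mitochondrial tRNA genes, all but AI839979 were under 1000 bases.

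In 3 of them, shown as examples chosen after their values were seen, the levels were close within each cell type. Pet100, an assembly factor of cytochrome oxidase (chromosome 8, 3621548 to 3625848, plus strand), had 18.5 and 31.1 CPM in VE-IVM and WT-IVM, against 1238 and 1394 CPM in VE-monocyte and WT-monocyte. Romo1, a small protein of the inner mitochondrial membrane, had 22.4 and 27.2 CPM, against 1172 and 796 CPM. Ndufc1 had 22.2 and 37.7 CPM, against 1092 and 708 CPM. Pet100 had 30.1 and 11.3 CPM in VE and WT microglia, and Romo1 44.9 and 14.8 CPM. The tRNA genes mt-Tp, mt-Tn and mt-Tc, each at most 71 bases long, were lower as well, mt-Tp by 86.3-fold in VE mice (74.3 to 101) and 90.4-fold in WT mice (73.8 to 112). Ndufb2, another lower complex I gene but with a median transcript of 2413 bases, overlaps the end of Braf on the other strand, and the use of strand in the counting is not given in the sources used here.

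Length moved with the comparison over the whole table. Genes under 500 bases had a median log2 ratio of IVM to monocytes of -2.44 in VE and -0.92 in WT mice, with 14 called lower and 0 higher, while genes of 2000 to 4000 bases had medians of 0.53 and -0.38, with 3 called lower and 18 higher. Genes under 1000 bases took 27.0% of the counts in VE-IVM and 37.9% in WT-IVM, against 62.8% in VE-monocyte and 51.5% in WT-monocyte. The microglia libraries held 29.9% (VE) and 25.7% (WT) in such genes. With length and GC content corrected for, 22 of the 46 higher genes and 3 of the 41 lower genes (Ly6c2, Wfdc21 and I830127L07Rik) were still called, and the other calls were lost. Some folds stayed about as large where the call was lost, as in Cd177, Vcan and Ngp, lower genes of more than 1000 bases. Cd177 had a log2 fold change of -9.11 corrected, against -8.88 uncorrected (corrected adjusted p = 0.116, edgeR), Vcan -7.66 against -7.71, and Ngp -6.54 against -6.72. Most folds of lower genes under 1000 bases shrank, such as that of Gm9733, at -5.00 corrected, against -6.18 uncorrected. That of Atp5k was -3.64 corrected, against -5.45 uncorrected, and that of mt-Tn -4.06 against -7.52.

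**Figure D4:**
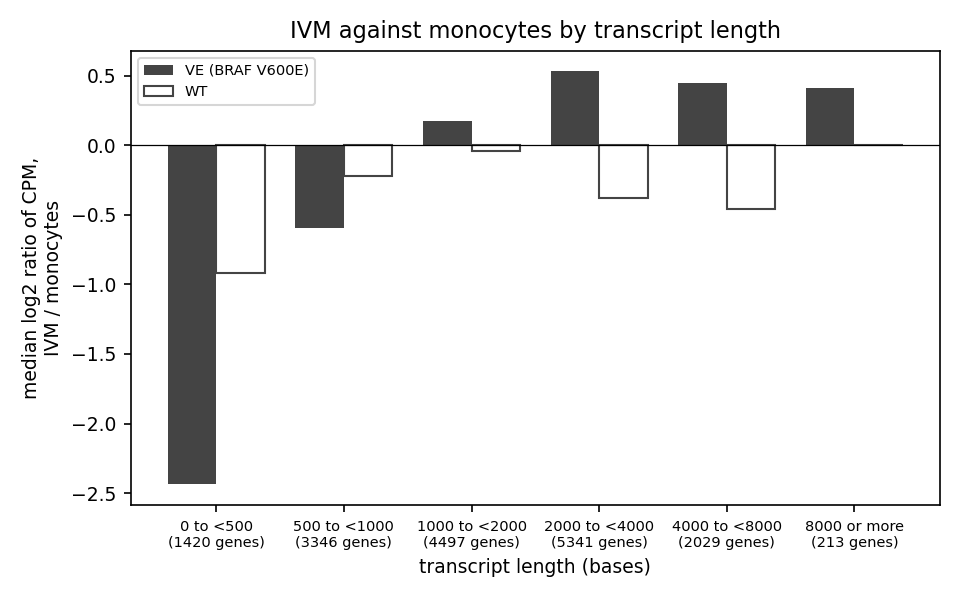
Bars give the median log2 ratio of IVM to monocytes over genes in 6 bins of transcript length, filled for VE and open for WT mice. The shortest genes lie lowest in both genotypes (-2.44 and -0.92), and from 2000 bases up the VE medians are positive while the WT medians are at or below 0.

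Of the 40 gene lists, 8 held a called gene and 32 held none. In the 32 lists without a call, 56 entries higher and 58 lower had an unadjusted p under 0.05 by edgeR with the same direction in both genotypes. DESeq2 called 44 and 38 of these lists' entries, and limma-voom 10 and 15; some genes are on more than 1 list. Their values are given below as values, by the role of the genes.

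Patrolling monocytes are the blood cells nearest to IVM in place, and 0 of their 20 markers passed in edgeR in either direction. An unadjusted p under 0.05 was found for 7 higher and 1 lower, DESeq2 called 6 and 1, and limma-voom called 0. Of the 20, 9 were higher in both genotypes, 2 were lower in both and 9 went opposite ways. The 7 that were at least 4-fold higher in each genotype were Treml4, Eno3, Cd36, Itgax, Cd274, Dusp16 and Pparg, against 1.29% of all genes, and Hes1 was at least 4-fold lower. Treml4, a receptor of patrolling monocytes, had 556 and 299 CPM in VE-IVM and WT-IVM, against 49.2 and 53.8 CPM in VE-monocyte and WT-monocyte. Cd36, a scavenger receptor for oxidised lipids, had 432 and 237 CPM, against 89.1 and 12.4 CPM. In both genes the groups did not overlap, and the adjusted p by edgeR was 0.175 and 0.120.

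The genes by which patrolling cells are best known were closer between the cell types. Nr4a1, the nuclear receptor they need, had 591 and 724 CPM in IVM, against 231 and 369 CPM in monocytes, and the integrin gene Itgal 611 and 755 CPM, against 214 and 262 CPM. Cx3cr1, the fractalkine receptor, had 1291 CPM in VE-IVM and 311 in WT-IVM, against 277 and 568 CPM in VE-monocyte and WT-monocyte, so the direction was opposite in the 2 genotypes. The same held for Ace and for Spn, which encodes CD43.

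Of the markers of Kupffer cells 10 of 13 were tested and 0 passed in edgeR, with 1 higher at an unadjusted p under 0.05, 1 called by DESeq2 and 0 by limma-voom. Clec4f, the lectin most particular to Kupffer cells in mice, had 1.19 CPM in VE-IVM and 0 counts in the other 3 libraries. Slc40a1, the iron exporter ferroportin, had 98.9 and 59.0 CPM in VE-IVM and WT-IVM, against 8.90 and 0.781 CPM in VE-monocyte and WT-monocyte (adjusted p = 0.142, edgeR). Cd163, the receptor for haptoglobin-haemoglobin complexes, had 89.0 and 20.9 CPM, against 22.8 and 7.16 CPM. Both IVM libraries lay above both monocyte libraries for Slc40a1 but not for Cd163. Spic, Nr1h3 and Hmox1 went opposite ways, higher in VE-IVM and lower in WT-IVM than in monocytes of the same genotype, and 5 of the 10 were higher in both genotypes.

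In the genes of antigen presentation no call was made. All 10 genes of MHC class II reached 10 CPM in both IVM libraries, 7 were higher in both genotypes, and they summed to 18525 and 11817 CPM in VE-IVM and WT-IVM, against 4428 and 3012 CPM in VE-monocyte and WT-monocyte. By edgeR 0 passed, with 5 higher at an unadjusted p under 0.05, 4 called by DESeq2 and 0 by limma-voom. H2-Eb1, a beta chain, had 1504 and 1264 CPM in IVM, against 369 and 124 CPM in monocytes. C1qa, of the first complement component, had 1107 and 279 CPM, against 67.1 and 1.04 CPM (adjusted p = 0.148, edgeR). It is on the lists of complement and of mature macrophage genes, where edgeR called 0 genes. Of 16 complement genes 7 were higher in both genotypes, 5 were lower and 4 went opposite ways. Of 16 mature macrophage genes 7 were higher, 6 were lower and 3 went opposite ways.

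Immediate early and inflammatory genes included large folds that also missed the threshold. Egr1, a zinc finger factor induced through ERK, had 692 and 273 CPM in IVM, against 51.7 and 7.50 CPM in monocytes (adjusted p = 0.0767, edgeR), and Jun, of AP-1, had 1485 and 1127 CPM, against 81.8 and 99.6 CPM. Cd83, a surface protein of activated antigen-presenting cells, had 193 and 350.1 CPM, against 12.6 and 11.7 CPM (adjusted p = 0.0602, edgeR). In each of these 3 genes both IVM libraries lay above both monocyte libraries. The median log2 ratio of the 20 immediate early genes was 0.77 in VE and 0.87 in WT mice, against 0.13 and -0.32 over all genes, and 9 of the 20 went opposite ways.

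In the list of oxidative phosphorylation genes, which holds none of the short genes named above, 0 of 20 passed by edgeR, 9 were lower at an unadjusted p under 0.05, and DESeq2 called 6 and limma-voom 5. Cycs, cytochrome c, had 63.3 and 52.5 CPM in VE-IVM and WT-IVM, against 2064 and 1251 CPM in VE-monocyte and WT-monocyte (adjusted p = 0.0543, edgeR), and Ndufa1, a 419-base transcript for a complex I subunit, had 63.6 and 127 CPM, against 2972 and 2454 CPM.

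Among genes that bear on the mutation and on cell cycle arrest, Braf had 24.9 and 45.3 CPM in VE-IVM and WT-IVM, against 13.4 and 27.7 CPM in VE-monocyte and WT-monocyte (adjusted p = 0.868, edgeR). Which allele the reads came from is not in the counts. Cdkn1a, the cell cycle inhibitor p21, had 73.2 CPM in VE-IVM and 115 in WT-IVM, against 833 and 62.4 CPM in VE-monocyte and WT-monocyte, and so went opposite ways in the 2 genotypes. None of the 15 cell cycle inhibitor and senescence genes tested passed by edgeR, 0 at an unadjusted p under 0.05, and none by DESeq2 or limma-voom.

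**Figure D5:**
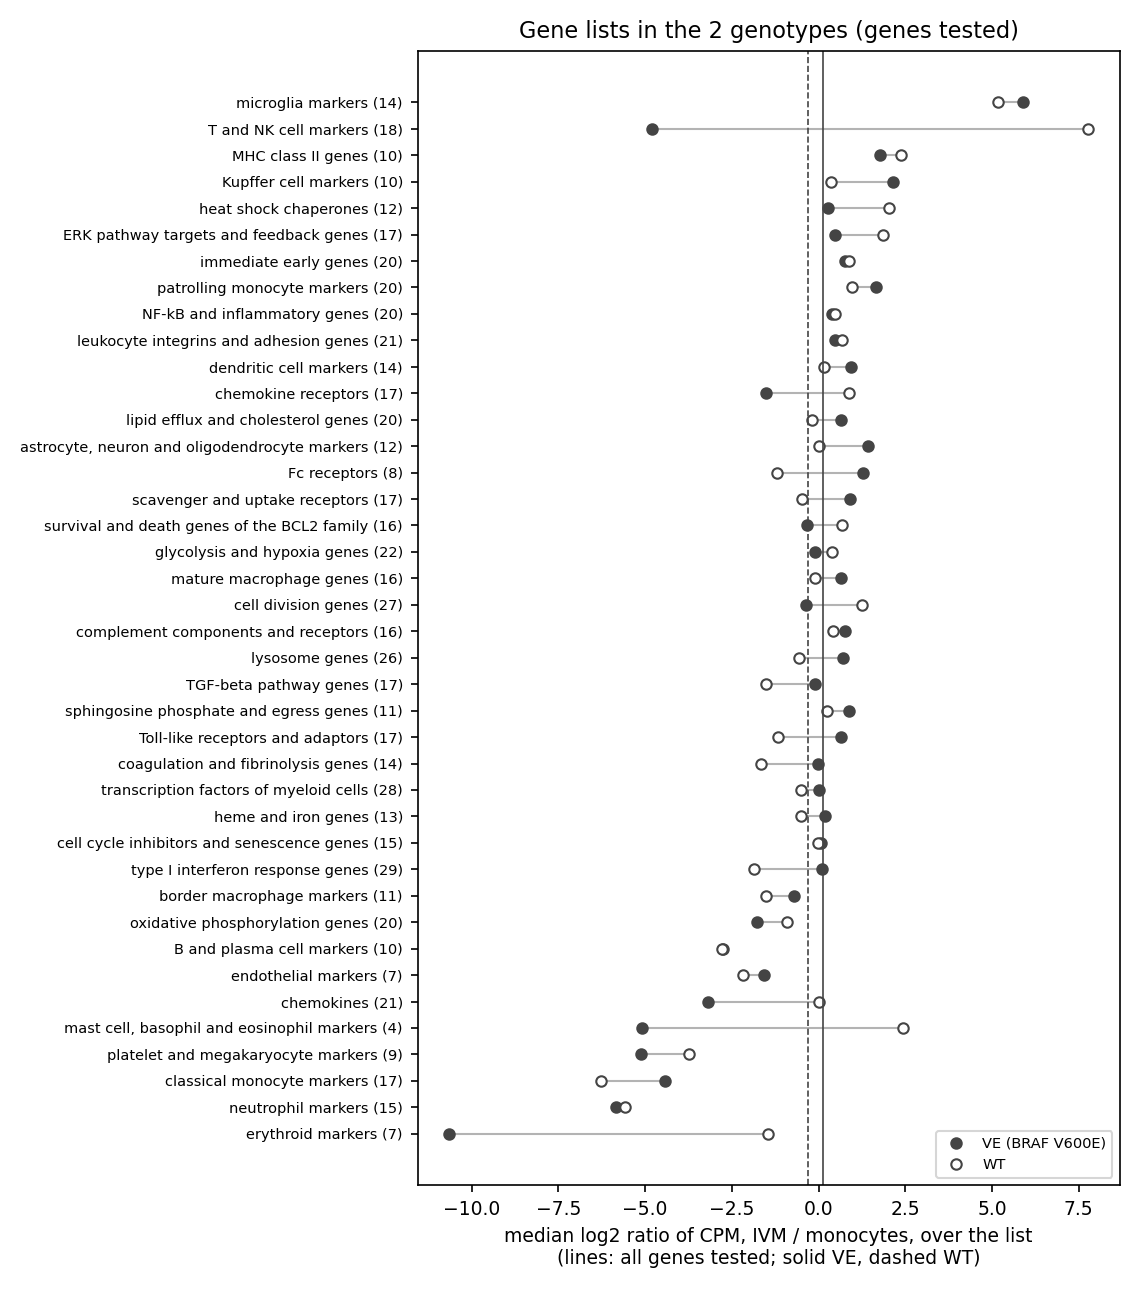
Median log2 ratio of IVM to monocytes over each of 40 gene lists, filled points VE and open points WT mice, with the number of genes tested in brackets; vertical lines give the medians over all genes tested (solid VE, 0.13; dashed WT, -0.32). Microglia markers lie high and classical monocyte and neutrophil markers lie low in both genotypes, and T and NK cell markers are split to either side.

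By size alone, 220 genes were at least 4-fold higher (1.29%) and 397 at least 4-fold lower (2.33%) in IVM in each genotype, the higher cell type reaching 10 CPM in both its libraries. These hold 40 of the 46 called higher and 40 of the 41 called lower genes. A further 264 genes (1.55%) were at least 4-fold apart in opposite directions in the 2 genotypes, with 10 CPM in the higher library. With no minimum of size, 7085 genes went opposite ways. The T and NK cell markers were the extreme of these: 18 of 18 were higher in WT-IVM and lower in VE-IVM than in the monocytes of the same genotype, such as the CD3 delta chain gene Cd3d, at 0.101 CPM in VE-IVM and 436 in WT-IVM, against 14.6 and 1.91 CPM in VE-monocyte and WT-monocyte.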

How the data were processed

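Per the labels' protocols, total RNA of sorted cells was copied with SMART-Seq HT and made into libraries with Nextera XT. The authors deposited whole-number read counts per gene symbol and, per the file headers, TPM, a unit that scales reads per length to one sum per library. The submitters' processing notes name bcl2fastq 2.20, Trimmomatic 0.37, STAR 2.5.2b, Subread 1.5.2 and the build mm10; what each did, which annotation was used and whether strand was used is not given in the sources used here. Of 49315 lines, 176 without a name (0.00507% to 0.0166% of counts) and 26 with a date for a symbol (0.0618% to 0.237%) were left out, 94 repeated symbols were summed, and 49016 symbols remained. Groups come from the sample titles.

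Counts were tested with edgeR 4.0.16 in R 4.3.3: quasi-likelihood test on all 6 libraries, genotype and cell type as terms, TMM, filterByExpr by cell type, Benjamini-Hochberg at 0.05. A call also asks for the same sign of the log2 ratio (prior count 2) in both genotypes. Where a library was left out, only the genotype with both libraries gave the sign. SE is the log2 fold change over the root of F. Nothing in the labels says that the libraries of a cell type are separate cultures or animals beyond the genotype, and no group has a replicate. The p-values reflect nothing but the spread of the 6 libraries. With 2 residual degrees of freedom, that spread is how far genotype differences vary between cell types, microglia included. It may be technical, and it also takes in effects of the mutation that differ by cell type and other cells in single libraries. Folds within a genotype carry exact conditional binomial 95% intervals; a library at 0 is set to a floor of 3 counts. Intervals and floors cover counting error only, since PCR reads are not independent molecules. The genotype pairs the libraries across cell types and was kept as the block. Simulated counts with known folds were used to test the script.

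The comparison, the members, the 40 lists (602 genes, 569 tested) and the rule for names were chosen with earlier results of these data known. The rule names the 15 largest called folds per direction whose higher cell type reached 10 CPM in both its libraries, without predicted, ribosomal and mitochondrial genes, up to 4 members per list, a panel, and the 10 largest opposite genes; the text names a part of these. Named outside the rule, after their values were seen, were AI839979, Atp5k, Atp5l, BC100530, Blnk, Bola2, Cd300e, Cd72, Clec4f, Cops9, Csf3r, Dusp16, Elane, Higd1a, Hmox1, I830127L07Rik, Lilra5, Mgl2, Mgst1, Mmp9, Mpo, Mrps18c, Ndufb2, Ndufc1, Nr1h3, Olfml3, P2ry12, P3h2, Polr2k, Romo1, Serpine2, Slirp, Spic, Stfa2l1, Tgfbr1, Tmem119 and the mt-T genes. Alternatives were RLE factors (DESeq2 1.42.0), library size alone, 2 filters, DESeq2, limma-voom and limma on TPM (limma 3.58.1), 4 libraries only, no block, each library left out and, added after seeing the data, a correction for length and GC content (mgcv 1.9.3). Coordinates and median coding transcript lengths are from GENCODE M21 (mm10) for 48553 symbols; promoters and their motifs are from RefSeq, and motifs were chosen with results known.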

Additional observations from a re-analysis of the deposited data

Results flagged for a closer look

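In all, 10 genes and 1 marker list were flagged because the difference between IVM and monocytes ran in opposite directions in the 2 genotypes. The 10 genes are the largest, as many as the naming rule takes, of 264 that were at least 4-fold apart each way (1.55% of 17023). The marker list was counted by direction alone, which was opposite in 7085 of the 17023 genes. With 1 library per group this difference between genotypes was not tested. As the log2 ratio of IVM to monocytes in VE mice minus that in WT mice, the values were -14.45 for Cd3d, -14.72 for Cd3g, -15.03 for Trac, -12.16 for Trbc1, -14.38 for Nkg7, -11.79 for Il2rb and -12.12 for Sh2d1a, all genes of T or NK cells. They were -13.12 for Tuba8, an alpha tubulin, -12.40 for Ms4a1, the B cell protein CD20, and -13.61 for Mcpt8, a basophil protease. In the marker list of T and NK cells 18 of 18 genes went opposite ways. The list summed to 5.05 CPM in VE-IVM and 7078 CPM in WT-IVM, against 375 CPM in VE-monocyte and 110.5 CPM in WT-monocyte.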

How the results depend on the processing

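The counts of calls depended strongly on the processing. The 46 higher and 41 lower genes and the 18 different genes called on the lists became 0, 0 and 0 with library size alone (smallest adjusted p 0.0644, with the median of all genes moved from -0.12 to 0.76) and with limma on TPM (0.255, median 0.44). They became 169, 244 and 78 with no filter on low counts, 95, 201 and 67 with the 4 libraries only, and 417, 537 and 106 with DESeq2. Without the genotype block, that is with no pairing of libraries by genotype, they were 17, 8 and 5; 17 of the 46 and 8 of the 41 genes remained. The correction for length and GC content gave 22, 3 and 5. With limma-voom the lower genes numbered 195 and the list genes 54. Leaving out one library gave 18 to 1771 higher genes, 40 to 3313 lower genes and 18 to 247 list genes; leaving out 1 library assumes that the lone sample of a cell type varies like the others. Without VE-monocyte 14 of the 46 higher and 25 of the 41 lower genes remained, and without WT-monocyte 14 and 15. Genes at least 4-fold apart numbered 402 higher and 767 lower with a minimum of 1 CPM, and 352 and 252 on deposited TPM. The cause of these shifts was not tested. Of 490 values of the 35 called genes named by the rule, 335 were past the threshold under other settings and 155 were not. None reversed, but their folds are far larger than any shift between scalings, so this says nothing of stability. Depth limits genes at 0 to 3 counts in a cell type, whose folds are bounds or wide intervals.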
